A study of Mus musculus with 20 samples.

Results

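The interferon regulatory factor (IRF) family was followed through 8 members, Irf1, Irf2, Irf3, Irf4, Irf5, Irf7, Irf8 and Irf9, which were picked by gene symbol from count tables that list 24421 genes. The RNA came from mouse bone marrow-derived macrophages (BMDM), which were grown in medium conditioned by L929 cells, a fibroblast line that secretes the macrophage growth factor CSF-1. Cells of each of 5 mice received 4 formulations for 48 h, which gave 20 libraries. LP is read here as the lipoparticle without a named adjuvant, LP PIC and LP 3M as the formulations with 1 adjuvant each, and LP 3M PIC as the dual formulation. The comparison group LP was therefore itself treated with particles, and cells without particles were not analysed here. The labels do not spell out PIC or 3M and give no amounts, mouse strain or age. Setting the dual beside a single formulation assumes that both hold the same amount of each adjuvant.

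IRFs are transcription factors with a shared DNA-binding domain that recognises repeats of GAAA. Irf3 and Irf7 act below sensors of foreign nucleic acid and switch on type I interferon genes, and secreted interferon then signals through its receptor to a complex that holds Irf9 and Stat2, which binds the interferon-stimulated response element (ISRE) and raises Irf7 further. Irf1 is an activator of inflammatory and antigen-presentation genes, Irf2 competes with it for the same sites, Irf5 drives inflammatory cytokine genes, and Irf8 and Irf4 work with the lineage factor PU.1 in macrophages and dendritic cells. Irf3, Irf5 and Irf7 proteins are switched on by phosphorylation, which RNA counts do not measure.

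Library totals ran from 9.74 M (mega) counts in LP of mouse 2 to 23.9 M, with a median of 22.8 M. A count of 3, taken as the floor of detection, equalled 0.126 to 0.308 CPM, the count scaled by the library total in units of M. The 9 macrophage markers summed to at least 11673 CPM in every library. The 5 erythroid markers were at 0 throughout, and the B cell markers summed to at most 1.05 CPM. Neutrophil markers (10 of 11 listed) summed to 7.36 to 12.1 CPM in LP and 11.7 to 25.5 CPM with LP PIC. Their sums were 29.4 to 138 CPM with LP 3M and 26.3 to 639 CPM with the dual formulation. The highest of these sums was that of mouse 2, where S100a8 reached 536 CPM while S100a9 stayed at or under 0.838 CPM in all libraries. Mmp8 had means of 7.37 CPM in LP, 14.9 with LP PIC, 71.4 with LP 3M and 45.5 with the dual formulation. The highest of the other listed neutrophil markers, Camp, stayed at or under 2.05 CPM in all libraries. Dendritic cell markers summed to 49.7 to 57.2 CPM in LP and 45.1 to 85.4 in LP 3M PIC, with Xcr1, Siglech, Cd209a and Klk1 at 0 in the latter. With LP PIC (33.4 to 36.3 CPM) and LP 3M (35.8 to 40.3 CPM) these sums lay below those of every LP library. By mean level Tcf4 was the largest of these markers in each condition. It had 52.8 CPM in LP, 32.3 with LP PIC, 37.5 with LP 3M and 39.5 with the dual formulation. Ccr7 went the other way, from 0.0355 CPM in LP to 2.49, 0.254 and 24.8 CPM in the same order. Fibroblast markers summed to 14.9 to 106 CPM over all libraries, and the conditions overlapped. The part of these cells in the results was not tested, and in bulk RNA a change in the number of cells cannot be told apart from a change of RNA per cell.

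Values of single genes are CPM of the plain library total, with the SD over 5 mice. Fold changes come from edgeR's quasi-likelihood test across 12132 genes, which rescales the libraries by TMM, so that a log2 change can differ slightly from the ratio of the CPM. A gene is called changed when its p, adjusted by Benjamini-Hochberg over the 12132 genes, is under 0.05, and errors of log2 changes are SEs. With plain totals in place of TMM the median log2 change of all genes went from -0.013 to -0.122 for LP 3M against LP and from 0.016 to -0.095 for LP 3M PIC against LP. The share of called genes that were higher then went from 50.6 to 32.1% for LP 3M, from 50.9 to 40.3% for LP 3M PIC, from 52.0 to 40.3% for LP 3M PIC against LP PIC, from 51.8 to 41.6% for LP 3M against LP PIC and from 45.3 to 55.6% for the interaction.

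All 8 members passed the filter on low counts. With LP PIC, 5 of the 8 members rose against LP (Irf1, Irf2, Irf3, Irf7 and Irf9), where 22.7% of all tested genes rose, and none fell, where 22.7% fell. With LP 3M 2 members fell (Irf2 and Irf5), where 19.5% of all tested genes fell, and none rose, where 20.0% rose. Both counts of 0 from edgeR were also 0 at an unadjusted p under 0.05 and by DESeq2. The dual formulation raised 3 members (Irf1, Irf7 and Irf9) and lowered 1 (Irf5), where 31.7% of all tested genes rose and 30.6% fell. The median log2 change of the 8 members was 0.22, -0.07 and 0.06 in the 3 comparisons, beside medians near 0 over all genes. Counting libraries that do not overlap in CPM, 3 members stood apart from LP with LP PIC (Irf1, Irf7, Irf9, beside 33.9% of all genes). With LP 3M 3 did (Irf2, Irf5, Irf8, beside 29.4%) and with LP 3M PIC 4 did (Irf1, Irf5, Irf7, Irf9, beside 45.5%). These counts use plain library totals, and with TMM-scaled library sizes Irf8 in LP 3M overlapped LP.

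**Figure D1:**
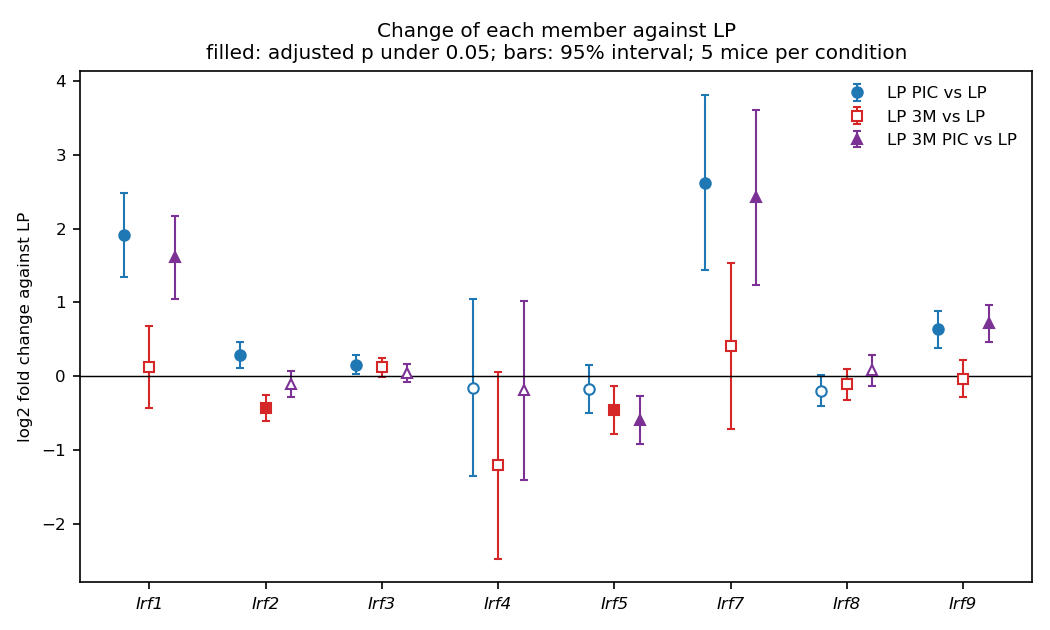
Log2 fold change of each member against LP (vertical axis) for LP PIC (circles), LP 3M (squares) and LP 3M PIC (triangles), 5 mice per condition. Bars are 95% intervals and filled symbols passed the test. Irf7 and Irf1 sit highest with both PIC formulations, and Irf2 and Irf5 are the filled symbols below 0 with LP 3M.

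Compared per kb of annotated exon, Irf5 had the highest mean level in LP, 93.3 ± 8.41 CPM per kb (SD, n = 5). Irf7 came next at 56.8 ± 49.1 CPM per kb and Irf8 at 26.0 ± 1.32. Irf9, Irf1 and Irf3 followed at 13.2 ± 2.25, 12.6 ± 2.09 and 11.2 ± 0.685 CPM per kb, and Irf9 and Irf1 differed by less than either SD. Irf1 and Irf3 differed by less than the SD of Irf1 but more than that of Irf3. Their order changed when the longest transcript replaced all exons as the length. Irf2, at 7.59 ± 0.619 CPM per kb, and Irf4, at 0.258 ± 0.173, were the lowest. Irf4 rested on 4 to 55 counts per library over the whole series.

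Irf7 made up most of the family in both PIC formulations. It held 22.7 ± 14.0% of the summed per-kb level in LP and 31.6 ± 15.3% in LP 3M, but 64.0 ± 3.31% in LP PIC and 64.7 ± 2.61% in LP 3M PIC. The share of Irf5 was 43.9 ± 8.03% in LP and 33.5 ± 7.002% with LP 3M, against 15.4 ± 2.16% with LP PIC and 12.8 ± 2.23% with the dual formulation. The family sum was 221 ± 59.7 CPM per kb in LP and 198 ± 72.8 with LP 3M, against 536 ± 115 with LP PIC and 443 ± 71.9 with the dual formulation. These shares were not tested. Irf3, Irf5 and Irf7 overlap genes on the opposite strand (Bcl2l12, Tnpo3 and Phrf1), and the strand setting of the counting is not given. Irf9 overlaps Rnf31 on the same strand, where no strand setting separates the genes. Reads of shared stretches may therefore be missing from these members or be counted for the wrong gene, which was not measured.

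**Figure D2:**
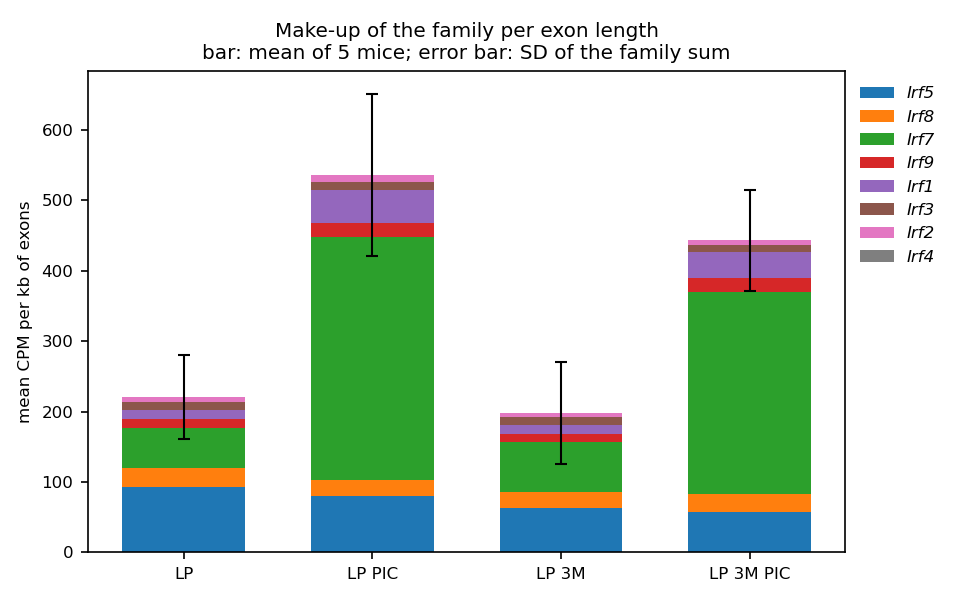
Mean level of the 8 members in CPM per kb of exon (vertical axis), stacked in 1 bar per condition. The error bar is the SD of the family sum over 5 mice. Irf7 fills most of the bar in LP PIC and LP 3M PIC, where its share is 64.0 and 64.7%, and Irf5 is the largest layer in LP.

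Irf7, the amplifier of type I interferon transcription, rose with both PIC formulations. The gene lies on the minus strand at chr7:141262706-141266481 (GRCm38). In LP the 5 mice, in order from mouse 1 to mouse 5, had 108, 81.2, 497, 311 and 75.3 CPM of Irf7. With LP PIC the same mice had 1409, 1102, 1183, 1871 and 967 CPM of Irf7. Every LP PIC library lay above every LP library, and mice 3 and 4 stood apart from the other 3 mice in LP. Irf7 rose by 2.62 ± 0.57 on the log2 scale (6.16-fold, 95% interval 1.43 to 3.82, edgeR adjusted p = 0.000999), in 5 of 5 mice.

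With LP 3M the Irf7 values were 158, 91.1, 606, 381 and 106 CPM, again with mice 3 and 4 on top. Each mouse was above its own LP value, but the groups overlapped and the log2 change of 0.41 ± 0.54 did not pass the test (95% interval -0.72 to 1.53, edgeR adjusted p = 0.577). With LP 3M PIC the Irf7 values were 1063, 857, 1358, 1182 and 965 CPM. All 5 lay above every library of LP and of LP 3M. Irf7 rose by 2.42 ± 0.56 against LP (edgeR adjusted p = 0.00106) and by 2.02 ± 0.56 against LP 3M (edgeR adjusted p = 0.00723). Against LP PIC the log2 difference of the dual formulation was -0.20 ± 0.54, with a 95% interval of -1.33 to 0.92 and an edgeR adjusted p = 0.781.

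The 5 mice did not have the same Irf7 level in LP, which was itself measured after 48 h with particles. Mice 1, 2 and 5 carry identifiers with a letter and mice 3 and 4 identifiers of digits only. This division was seen after the values, and the labels do not say what the identifiers mean. In LP the mean of Irf7 was 88.2 CPM over mice 1, 2 and 5 and 404 CPM over mice 3 and 4, a ratio of 4.58, and in LP 3M the ratio was 4.17. In LP PIC and LP 3M PIC the ratio was 1.32 in both. Irf9 had a ratio of 1.32 in LP and 1.04 in LP PIC, Irf1 one of 1.28 and 1.27, and Irf8 one of 0.993 and 1.02. Target genes of the interferon response were also higher in mice 3 and 4 in LP, Isg15 by 3.34 times, Ifit1 by 4.47 times and Stat2 by 2.14 times.

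As the sets were noticed from the LP level, from which the changes against LP are counted, those changes were not compared between the sets. Within either set, Irf1, Irf7 and Irf9 rose with both PIC formulations and Irf5 fell with the dual one. Sets drawn from the Irf7 level narrow its spread by their making, so these fits add no support. The SE of Irf7 with LP PIC was 0.57 over all mice, 0.25 in mice 1, 2 and 5 and 0.35 in mice 3 and 4. Irf5 with LP 3M passed in mice 3 and 4 (edgeR adjusted p = 0.0277) but not in mice 1, 2 and 5 (edgeR adjusted p = 0.0828). Irf2 with LP 3M also fell in each set, whereas the rises of Irf2 and Irf3 with LP PIC did not pass the test in either.

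**Figure D3:**
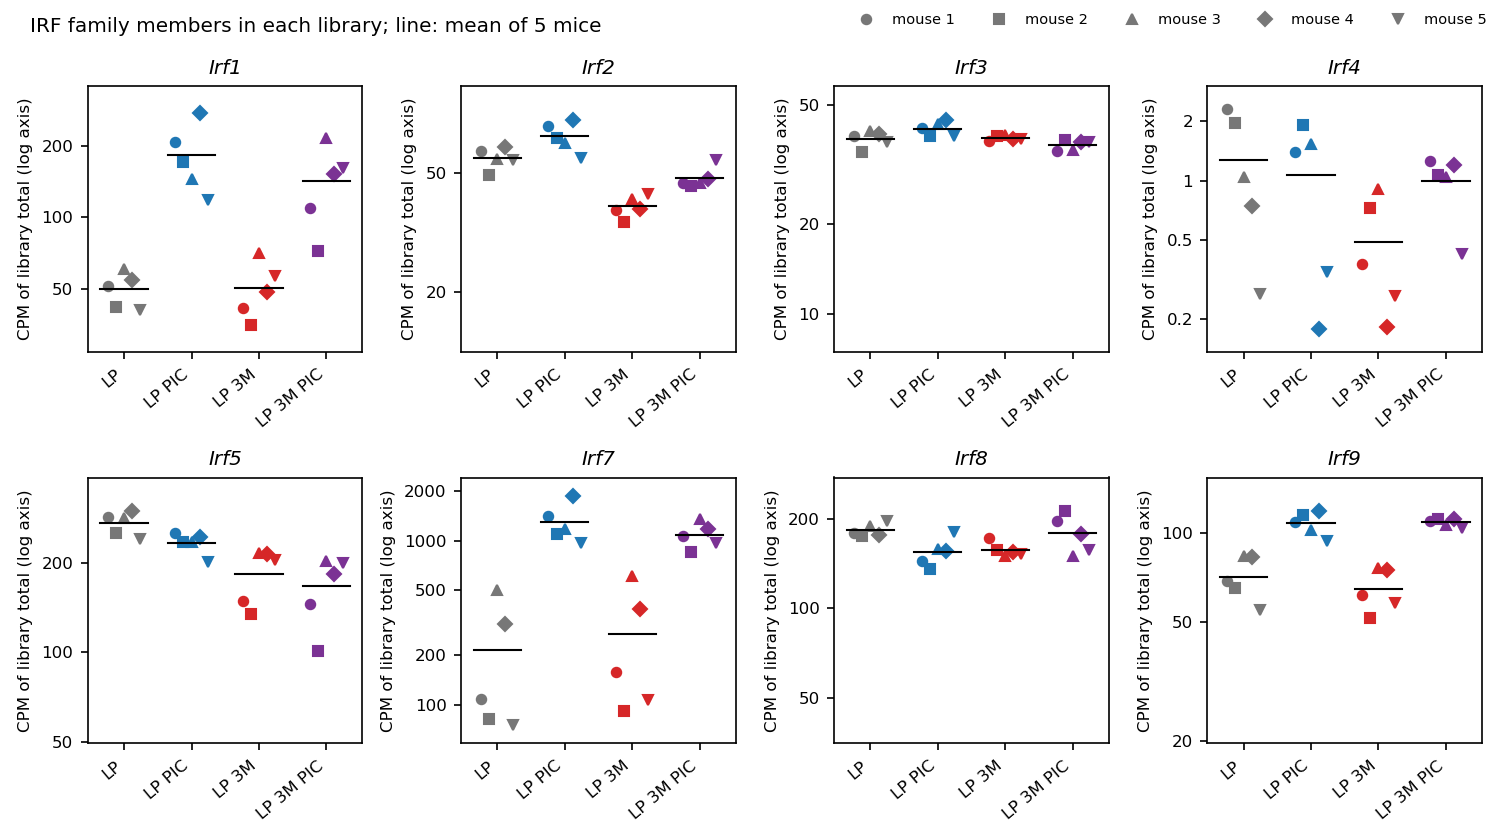
CPM of the library total (vertical axis, log scale) of each member in all 20 libraries, with 1 symbol shape per mouse and a line at the mean of 5 mice per condition. Mice 3 and 4 are the upper points of Irf7 in LP and LP 3M, and the 10 libraries with PIC lie above the others.

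Irf9, the DNA-binding subunit of the complex with Stat2, lies at chr14:55603571-55610030 on the plus strand (GRCm38). Its values in LP were 68.9, 65.3, 83.2, 83.1 and 55.0 CPM. With LP PIC Irf9 measured 109, 114, 102, 118 and 93.8 CPM. With LP 3M PIC Irf9 measured 110, 111, 106, 111 and 103 CPM, a SD of 0.05 on the log2 scale against 0.25 in LP. Neither PIC group overlapped LP. Irf9 rose by 0.63 ± 0.12 with LP PIC (edgeR adjusted p = 0.000271) and by 0.72 ± 0.12 with LP 3M PIC (edgeR adjusted p = 3.89e-05), in 5 of 5 mice each time. With LP 3M alone Irf9 ranged from 51.9 to 76.3 CPM, a log2 change of -0.03 ± 0.12 that did not pass the test (edgeR adjusted p = 0.848). The 2 PIC formulations differed in Irf9 by 0.08 on the log2 scale, with a 95% interval of -0.17 to 0.33.

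Irf1 and Irf2 bind the same sites with opposite roles, and both loci could be set beside their start sites. Irf1 lies at chr11:53770014-53778374 and Irf2 at chr8:46739732-46847458, both on the plus strand (GRCm38). RefSeq start windows of 300 bases (GRCm38.p6, 250 before to 50 after the start) were found for all 8 members, as 11 windows, and searched on both strands for GAAANNGAAA (the ISRE core), TTCNNNGAA (GAS, the interferon-gamma activated site) and the kappaB motif of NF-kB. These motifs are present in 3.44%, 8.30% and 4.51% of 32851 windows of this length. The stretches below are shown because they hold matches, and a link between a match and a change of the member was not tested. The Irf1 stretch spans chr11:53769904-53770013 and carries, in capitals, a GAS match followed by a kappaB match. The Irf2 stretch spans chr8:46739495-46739549 and carries an ISRE match followed by a GAS match. The Irf8 stretch spans chr8:120736167-120736233 and carries 2 GAS matches. All 3 are on the plus strand.
Irf1: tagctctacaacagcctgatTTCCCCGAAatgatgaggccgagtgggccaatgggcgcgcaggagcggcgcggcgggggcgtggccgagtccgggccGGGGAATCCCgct
Irf2: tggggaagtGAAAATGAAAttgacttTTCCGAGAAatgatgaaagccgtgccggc
Irf8: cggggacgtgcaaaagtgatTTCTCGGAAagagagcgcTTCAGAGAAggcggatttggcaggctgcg

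Counted from the start site, the GAS match of Irf1 spans bases -90 to -82 and its kappaB match -13 to -4. In Irf2 the ISRE match spans -241 to -232, the GAS match -224 to -216 and a kappaB match, outside the stretch shown, -17 to -8. The GAS matches of Irf8 span -171 to -163 and -153 to -145. The windows of Irf3, Irf4, Irf5, Irf7 and Irf9 held no match of the 3 motifs, which says only that these letters are not in these windows. A match is a run of letters and was not measured as a bound site.

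Irf1 measured 51.3, 42.3, 60.7, 54.6 and 41.0 CPM in LP. With LP PIC Irf1 measured 207, 171, 145, 274 and 119 CPM, every value above every LP library. Irf1 rose by 1.91 ± 0.27 on the log2 scale (3.77-fold, edgeR adjusted p = 1.56e-05), in 5 of 5 mice. With LP 3M Irf1 measured 41.9, 35.4, 70.9, 48.5 and 56.6 CPM. These values overlapped LP on both sides, and the log2 change of 0.12 ± 0.26 did not pass the test (95% interval -0.43 to 0.67, edgeR adjusted p = 0.750).

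With LP 3M PIC Irf1 measured 109, 72.2, 216, 152 and 162 CPM. The lowest of these, mouse 2, was above all LP libraries and just above the highest LP 3M library. Irf1 rose by 1.61 ± 0.27 against LP (edgeR adjusted p = 4.26e-05) and by 1.49 ± 0.27 against LP 3M (edgeR adjusted p = 0.000261). The mice ranked differently under the PIC formulations: mouse 4 was highest with LP PIC and mouse 3 with LP 3M PIC. The spread of Irf1 between mice, an SD of 0.46 with LP PIC and 0.60 with LP 3M PIC on the log2 scale, was above the median over all genes of 0.18 and 0.19.

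Irf2 measured 59.2, 49.3, 55.9, 61.3 and 55.1 CPM in LP. With LP PIC Irf2 measured 72.2, 65.4, 63.3, 75.3 and 56.2 CPM, which overlapped LP. With LP 3M Irf2 measured 37.7, 34.4, 40.9, 37.9 and 42.6 CPM. All 5 LP 3M libraries lay below all LP and all LP PIC libraries. Irf2 rose by 0.29 ± 0.08 with LP PIC (edgeR adjusted p = 0.00823) and fell by 0.43 on the log2 scale with LP 3M (SE 0.08, edgeR adjusted p = 0.000446), so that the single formulations moved it in opposite directions. Between LP 3M and LP PIC the log2 difference of Irf2 was -0.72 ± 0.08 (edgeR adjusted p = 1.88e-06).

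The dual formulation left Irf2 at 46.5, 45.2, 46.4, 47.7 and 55.4 CPM, between the single ones in mice 1 to 4 and close to LP PIC in mouse 5. Its log2 change against LP was -0.11 ± 0.08 and did not pass the test (edgeR adjusted p = 0.253). It rose by 0.32 ± 0.08 against LP 3M (edgeR adjusted p = 0.00457) and fell by 0.40 against LP PIC (SE 0.08, edgeR adjusted p = 0.000803).

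The balance of activator to antagonist was followed as the log2 ratio of Irf1 to Irf2 counts within each library, where depth cancels. Since counts rise with transcript length, the ratio is compared between conditions only. Its mean was -0.18 ± 0.19 in LP, 1.41 ± 0.31 in LP PIC and 0.35 ± 0.29 in LP 3M. In 5 of 5 mice the ratio was higher in LP 3M than in LP. Against LP the log2 ratio was higher by 1.59 with LP PIC (adjusted p = 0.0317) and by 0.53 with LP 3M (adjusted p = 0.0381) by two-sided exact permutation tests, adjusted over 12 comparisons of 2 ratios. In LP 3M PIC the mean was 1.47, which was 1.65 above LP (adjusted p = 0.0317, exact permutation) and 1.12 above LP 3M (adjusted p = 0.0381, exact permutation). It differed from LP PIC by 0.06 (adjusted p = 0.968, exact permutation). The smallest p that 5 against 5 libraries allow here is 0.00794. These tests treat the libraries of a mouse as independent. The calls were lost when libraries were paired by mouse, where 5 pairs allow no exact sign-flip p under 0.0625, and with any 1 mouse left out, where 4 against 4 libraries allow no exact permutation p under 0.0286 before adjustment. With LP 3M Irf2 fell and Irf1 did not pass the test.

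**Figure D4:**
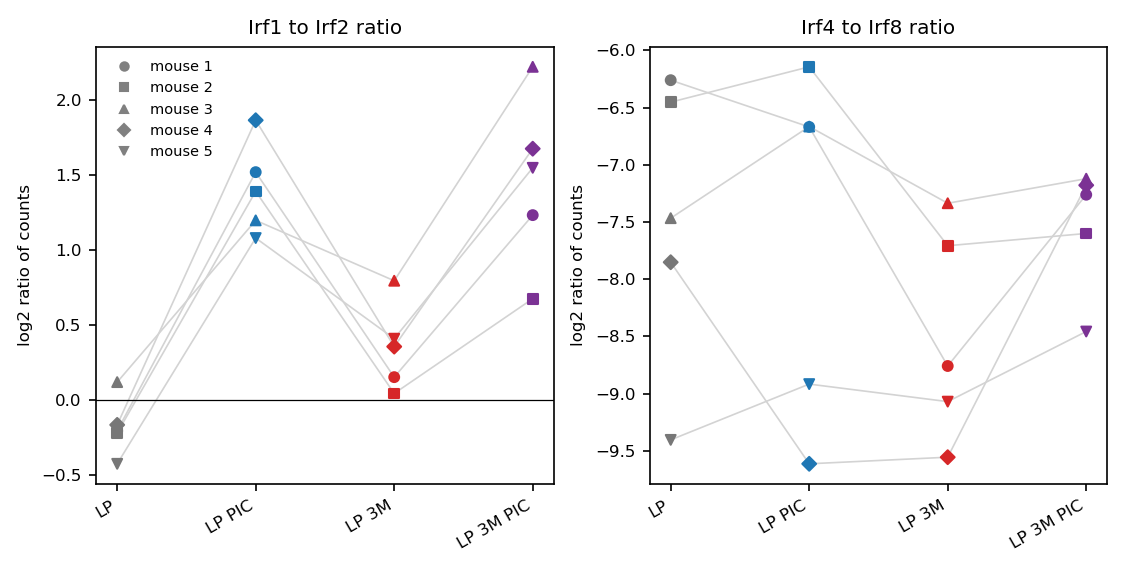
Log2 ratio of counts within each library (vertical axes) for Irf1 to Irf2 (left) and Irf4 to Irf8 (right), with grey lines joining the libraries of 1 mouse. The Irf1 to Irf2 ratio is above its LP value in all 5 mice under each other formulation, and the Irf4 to Irf8 ratio spreads widely within each condition.

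Irf5 and Irf3, like Irf7, are switched on as proteins by signals from Toll-like receptors or cytosolic sensors. Irf5 lies at chr6:29526625-29541871 on the plus strand and Irf3 at chr7:44997648-45002848, also plus (GRCm38). Irf5 measured 284, 251, 283, 297 and 239 CPM in LP. With LP 3M it measured 149, 134, 215, 214 and 203 CPM, and with LP 3M PIC 146, 101, 203, 184 and 199 CPM. Every library of both 3M groups lay below every LP library, and mice 1 and 2 were lowest in both. Irf5 fell by 0.46 with LP 3M (SE 0.16, edgeR adjusted p = 0.0253) and by 0.60 with LP 3M PIC (SE 0.16, edgeR adjusted p = 0.00276). The LP 3M call was lost without mouse 1 (edgeR adjusted p = 0.13) and without mouse 4 (edgeR adjusted p = 0.0592).

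With LP PIC Irf5 measured 251, 235, 235, 244 and 202 CPM, lower than LP in each mouse. The log2 change of -0.17 ± 0.16 did not pass the test (edgeR adjusted p = 0.388). Against LP PIC the dual formulation lowered Irf5 by 0.42 on the log2 scale (SE 0.16, edgeR adjusted p = 0.0351), a call that was lost without mouse 1, 2 or 4 and when only these 2 conditions were fitted.

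Irf3 varied little. It stayed between 35.01 and 44.7 CPM in all 20 libraries, and its SD over mice on the log2 scale was 0.03 to 0.09, under the median of all genes in each condition. Irf3 rose by 0.16 ± 0.06 with LP PIC (edgeR adjusted p = 0.0417), but this call was lost in 8 of 13 alternative fits. With LP 3M the log2 change was 0.12 ± 0.06 (edgeR adjusted p = 0.128). With the dual formulation it was 0.04 ± 0.06 (95% interval -0.09 to 0.17, edgeR adjusted p = 0.569), and its sign turned with plain library totals.

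Irf8 and Irf4 pair with PU.1, which is encoded by Spi1. Irf8 lies at chr8:120736358-120756694 and Irf4 at chr13:30749226-30766976, both on the plus strand (GRCm38). Irf8 measured 179, 175, 189, 176 and 197 CPM in LP, and 144, 136, 158, 155 and 181 CPM with LP PIC. With LP 3M Irf8 measured 172, 157, 150, 155 and 152 CPM, all below the LP libraries in CPM of the plain totals. With library sizes scaled by TMM, LP and LP 3M overlapped in Irf8. Neither single formulation changed Irf8 by the test, with log2 changes of -0.20 ± 0.10 for LP PIC (edgeR adjusted p = 0.112) and -0.11 ± 0.10 for LP 3M (edgeR adjusted p = 0.397). With plain library totals the LP PIC change passed the test (edgeR adjusted p = 0.0326).

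With LP 3M PIC Irf8 measured 196, 211, 150, 178 and 158 CPM, on both sides of LP. Its log2 change against LP was 0.08 ± 0.10 (edgeR adjusted p = 0.513), and the sign turned with plain totals. Against LP PIC, Irf8 rose by 0.28 ± 0.10 with the dual formulation (edgeR adjusted p = 0.0300). This rise was present in 3 of 5 mice and the call was lost in 6 of 13 alternatives. Among them was the fit without mouse 2 (edgeR adjusted p = 0.255), the mouse with the highest Irf8 in that condition. Mouse 2 also had the highest neutrophil marker sum there, which was mostly S100a8 (536 CPM).

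Irf4 stayed close to the floor of detection. It measured 2.31, 1.95, 1.05, 0.740 and 0.268 CPM in LP, and 0.377, 0.727, 0.908, 0.183 and 0.262 CPM with LP 3M. Mice 1 to 4 had less Irf4 with LP 3M than with LP, while the groups overlapped. In mouse 5 both libraries held 6 counts, so that their CPM differed by the library total only. The log2 change was -1.21 ± 0.61 and did not pass the test (edgeR adjusted p = 0.121), but did with the mouse as a block (edgeR adjusted p = 0.0274). With LP 3M PIC Irf4 was between 0.427 and 1.25 CPM. It was above LP 3M in each mouse, by a log2 difference of 1.02 ± 0.61 (edgeR adjusted p = 0.194, and 0.037 with the block). With LP PIC the log2 change was -0.16 ± 0.57 (95% interval -1.35 to 1.04, edgeR adjusted p = 0.849). The log2 ratio of Irf4 to Irf8 counts had means from -8.48 in LP 3M to -7.49 in LP, and none of its 6 comparisons passed the exact permutation test.

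Between the formulations that carry an adjuvant, 4 members rose from LP 3M to LP 3M PIC (Irf1, Irf2, Irf7 and Irf9), where 20.5% of all tested genes rose. From LP PIC to LP 3M PIC 1 member rose (Irf8), where 23.1% of all genes rose, and 2 fell (Irf2 and Irf5), where 21.4% of all genes fell. Between the single formulations 4 members were lower with LP 3M than with LP PIC (Irf1, Irf2, Irf7 and Irf9), where 22.7% of all genes were lower. With the mouse as a block Irf5 joined them (edgeR adjusted p = 0.0396). These comparisons share libraries with each other and with those against LP.

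The interaction asks whether the change with the dual formulation differed from the sum of the single changes on the log2 scale. It was called for none of the 8 members by edgeR at an adjusted p under 0.05, where 8.43% of all tested genes were called. At an unadjusted p under 0.05 edgeR called 1 higher (Irf8) and 1 lower (Irf3), and DESeq2 called 0 after adjustment. Irf7 had a dual change of 2.42 against a sum of 3.03, and Irf1 one of 1.61 against 2.03. The difference for Irf7 was -0.61 (95% interval -2.20 to 0.98, and -1.70 to 0.41 with the mouse as a block), and it was below 0 in 5 of 5 mice (-0.96 to -0.09). For Irf1 it was -0.42 (95% interval -1.20 to 0.35). It was also below 0 in 5 of 5 mice for Irf3 (-0.25 to -0.11) and above 0 in 5 of 5 for Irf8 (0.17 to 0.80) and Irf9 (0.06 to 0.29). These values of single mice use plain library totals. With TMM-scaled library sizes the Irf9 value was not above 0 in every mouse. With the block too, edgeR called none of the 8 members. For Irf2, Irf5 and Irf9 the dual change differed from the sum by 0.03, 0.04 and 0.12. The lowest adjusted p were those of Irf8 (0.39 ± 0.14, edgeR adjusted p = 0.0990) and Irf3 (-0.23 ± 0.09, edgeR adjusted p = 0.103). Irf8 passed with plain totals (edgeR adjusted p = 0.0434) and without mouse 5 (edgeR adjusted p = 0.0490).

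**Figure D5:**
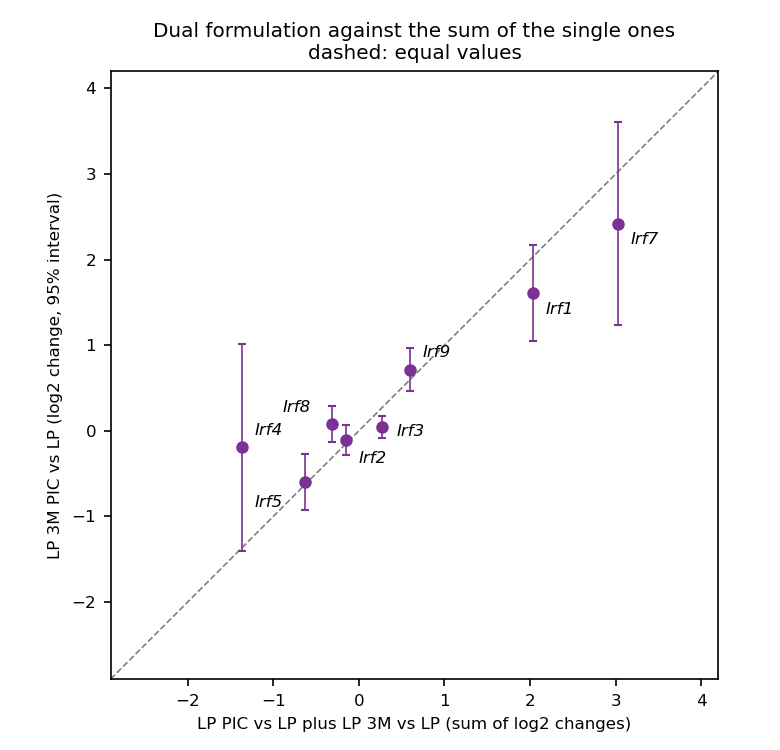
Log2 change with LP 3M PIC against LP (vertical axis, bars are 95% intervals) beside the sum of the log2 changes with LP PIC and LP 3M (horizontal axis), 1 point per member. The dashed line marks equal values. Irf1, Irf3 and Irf7 lie below it and Irf4 and Irf8 above it. The bars do not include the error of the sum, and none of the 8 interactions passed the test.

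The pathway lists are read against the shares of all tested genes that edgeR called, which were 22.7% higher and 22.7% lower with LP PIC, 20.0% and 19.5% with LP 3M, and 31.7% and 30.6% with LP 3M PIC. Upstream of the family, 23 genes of sensors and adaptors were tested. With LP PIC 14 rose and 1 fell (median log2 change 0.45), with LP 3M 9 rose and 4 fell (median 0.25), and with LP 3M PIC 14 rose and 3 fell (median 0.75). Tlr3, the sensor of double-stranded RNA, had a mean of 20.2 CPM in LP and 15.6 with LP 3M, and of 42.8 with LP PIC and 38.2 with the dual formulation. It rose by 1.13 ± 0.20 with LP PIC (edgeR adjusted p = 0.000193), and its log2 change with LP 3M, -0.27 ± 0.21, did not pass the test. Tlr7, the endosomal sensor of single-stranded RNA, rose with all 3 formulations, by 0.77 ± 0.12, 0.34 ± 0.12 and 0.99 ± 0.12. Of the kinases that phosphorylate Irf3 and Irf7, Ikbke rose by 1.26 ± 0.13, 1.75 ± 0.13 and 2.01 ± 0.13 and Tbk1 by 0.45 ± 0.06, 0.25 ± 0.06 and 0.64 ± 0.06, in the same order. Ikbke showed an interaction of -0.99 ± 0.17 (edgeR adjusted p = 0.00236). The interaction was called for 2 of these 23 genes, both lower, where 8.43% of all tested genes were called. In the lists below it was lower for 3 of 14 IRF1-type genes. It was higher for 1 and lower for 1 among receptors, JAKs, STATs and inhibitors, and higher for 1 partner. Tank, which scaffolds these kinases, rose by 1.06 ± 0.13, 0.89 ± 0.13 and 1.63 ± 0.13. Irak4, a kinase of the Toll-like receptor complex that feeds Irf5 and Irf7, fell by 0.50, 0.14 and 0.65 on the log2 scale. Traf6, the ligase next in that path, rose by 0.35 ± 0.08 with LP PIC and fell by 0.46 with LP 3M.

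Among 21 interferon ligand genes Ifnb1, which encodes interferon beta, was the one that passed the filter. It had 1 count over the 5 LP libraries and 0 over those of LP 3M, but 125 with LP PIC and 283 with the dual formulation. The 5 mice had 1.18, 1.64, 0.788, 1.63 and 0.230 CPM of Ifnb1 with LP PIC and 2.69, 6.33, 0.877, 1.31 and 1.75 CPM with LP 3M PIC. Ifnb1 was thus seen in every library with PIC and in 1 of the 10 others, and passed the test with LP PIC (edgeR adjusted p = 0.000142) and with LP 3M PIC (edgeR adjusted p = 5.11e-06). It passed the filter only through the libraries with PIC, so that the filter favoured a rise there. The other 20 ligand genes had at most 4 counts in any library.

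Of 17 tested genes of receptors, JAKs, STATs and their inhibitors, 12 rose and 1 fell with LP PIC, 9 rose and 2 fell with LP 3M, and 13 rose and 2 fell with LP 3M PIC (medians 0.52, 0.31 and 0.85). Stat2, a partner of Irf9, rose by 1.57 ± 0.32 with LP PIC and by 1.38 ± 0.32 with LP 3M PIC and had a log2 change of 0.00 ± 0.31 with LP 3M. Ifnar1, a chain of the type I interferon receptor, rose with LP 3M (0.55 ± 0.10) and LP 3M PIC (0.50 ± 0.10). Socs3, an inhibitor of JAK signalling, rose by 1.69 ± 0.44, 5.40 ± 0.49 and 6.92 ± 0.52, and Jak2 by 1.93 ± 0.27, 2.37 ± 0.28 and 3.95 ± 0.29. Socs1, a further inhibitor, was at 2.01 CPM in LP and rose with all 3 formulations, to 8.99 CPM with LP PIC, 19.3 with LP 3M and 60.1 with both adjuvants. Il10rb fell in all 3 comparisons, by 0.25, 0.27 and 0.66 on the log2 scale.

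Partners and co-regulators, 16 genes, counted 6 higher and 1 lower with LP PIC, 6 higher and 1 lower with LP 3M and 9 higher and 3 lower with LP 3M PIC (medians 0.03, 0.06 and 0.42). Over all tested genes the shares higher were 22.7%, 20.0% and 31.7%. Spi1, the partner of Irf8 and Irf4, rose by 0.36 ± 0.10 with LP 3M and 0.32 ± 0.10 with LP 3M PIC and had a log2 change of 0.03 ± 0.10 with LP PIC. Batf, which forms complexes with Irf4 and Irf8 on DNA, rose from 4.64 CPM in LP to 15.3 with LP PIC, 36.2 with LP 3M and 99.7 with both adjuvants. Batf2, a partner of Irf1, was at 3.61, 21.4, 5.84 and 27.7 CPM in that order. It rose with LP PIC by 2.60 ± 0.33 and with LP 3M PIC by 3.03 ± 0.34, and its log2 change of 0.79 ± 0.33 with LP 3M passed the test only with the mouse as a block (edgeR adjusted p = 0.0320). Batf3 rose with LP 3M, by 1.08 ± 0.33, and its log2 change of -0.79 ± 0.35 with LP PIC passed the test only with the block (edgeR adjusted p = 0.0174). Peli1, a ubiquitin ligase, rose by 1.41 ± 0.15 with LP PIC and 1.98 ± 0.16 with LP 3M PIC. The co-repressor gene Irf2bpl fell by 1.11 with LP PIC and 0.79 with LP 3M PIC on the log2 scale, and Irf2bp2 fell by 0.57 with LP 3M PIC.

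Genes known as targets of the members were listed by the member they are best known for, although most respond to several. Of 17 ISRE-type antiviral genes, 16 rose with LP PIC, 1 with LP 3M and 17 with LP 3M PIC, and none fell (medians 3.22, 0.39 and 2.53). With the mouse as a block 5 rose and 1 fell with LP 3M. Cxcl10, a T cell chemokine, had a mean of 1.18 CPM in LP and 2.20 with LP 3M, beside 103 with LP PIC and 162 with the dual formulation. Isg15, a ubiquitin-like antiviral protein, was at 24.5 and 57.4 CPM in the same 2 groups and at 299 and 459 CPM with PIC. Its log2 change with LP 3M of 1.31 ± 0.52 passed the test only with the block (edgeR adjusted p = 0.00389). The same held for Cxcl10 with LP 3M, with a log2 change of 1.03 ± 0.57 (edgeR adjusted p = 0.0412 with the block). Oasl1, which restrains Irf7 translation, rose by 4.06 ± 0.54 with LP PIC and 5.16 ± 0.57 with LP 3M PIC. Between LP PIC and LP 3M PIC none of the 17 genes changed by the test, and 2 were higher with the dual formulation with the block.

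All 14 IRF1-type genes rose with LP PIC and with LP 3M PIC, and 6 rose and 1 fell with LP 3M (medians 1.73, 1.73 and 0.52). Gbp2, an interferon-induced GTPase, was at 26.0 CPM in LP, and at 570 with LP PIC, 109 with LP 3M and 649 with the dual formulation. It rose in LP 3M by 2.16 ± 0.39, where Irf1 itself did not pass the test. Ciita, the master regulator of MHC class II, rose by 4.06 ± 0.53, 2.04 ± 0.53 and 4.53 ± 0.54. Cybb, a subunit of the phagocyte oxidase, rose by 1.48 ± 0.11, 1.81 ± 0.11 and 1.97 ± 0.11. Nos2, the inducible nitric oxide synthase, was at 0.214 CPM in LP, and at 94.2 with LP PIC, 18.2 with LP 3M and 240 with the dual formulation. The interactions of Cybb, Nos2 and Gbp2 were -1.32 ± 0.15, -5.05 ± 1.11 and -1.91 ± 0.53 (edgeR adjusted p = 3.42e-05, 0.00932 and 0.0323). Il15 was the gene that fell with LP 3M, by 0.95 on the log2 scale, and it rose with LP PIC from 14.7 to 40.1 CPM.

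Of 6 IRF5-type cytokine genes 5 were tested, of which 3 rose with LP PIC and 5 with each 3M formulation. With the mouse as a block 4 rose with LP PIC, Il6 being added (edgeR adjusted p = 0.0268). Tnf was at 34.7 CPM in LP, and at 110 with LP PIC, 397 with LP 3M and 958 with the dual formulation. Il12b was at 0.0346, 1.24, 1.87 and 340 CPM and Il6 at 0.0348, 0.653, 15.6 and 252 CPM in the same order. Irf5 RNA thus fell in the formulations where all 5 of these genes rose. Of 7 IRF4-type genes of alternative activation 5 were tested. With LP PIC 1 rose and 1 fell (median log2 change -1.19), with LP 3M 1 rose and 0 fell (median 2.40), and with LP 3M PIC 3 rose and 2 fell (median 4.09). With the mouse as a block 1 rose and 3 fell with LP PIC, and 2 rose and 1 fell with LP 3M. Mrc1, the mannose receptor, was at 106 CPM in LP and 9.06 in LP 3M PIC and fell by 3.40 on the log2 scale with the dual formulation (edgeR adjusted p = 8.55e-05). The chemokine gene Ccl22 went from 0.246 CPM in LP to 12.8 with LP PIC, 1.98 with LP 3M and 58.7 with the dual formulation, and rose in all 3 comparisons. Arg1, which encodes arginase 1, rose with LP 3M PIC by 4.09 ± 1.43 (edgeR adjusted p = 0.0187), with single libraries there between 0.0854 and 32.3 CPM. Its change of 2.40 ± 1.43 with LP 3M passed the test only with the mouse as a block (edgeR adjusted p = 0.00586), and its median library held 0.272 CPM there. The list medians of 2.40 and 4.09 are these values of Arg1 alone. Ccl17 and Ccl22 lay above them, while Mrc1 and Clec10a had changes below 0 in both comparisons. Ccl17, a chemokine gene, was at 0.599 to 6.06 CPM with the dual formulation, where it rose, and had 1 count in all LP libraries together. It passed the filter only through the dual formulation, so that the filter favoured its rise there. Clec10a, a lectin gene named after its values were seen, fell by 2.49 with the dual formulation (edgeR adjusted p = 0.00922).

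For members whose condition means spanned at least 1 on the log2 scale, the genes of most similar profile over the 20 libraries were found by the root-mean-square difference of centred log2 CPM among 9340 candidates. Irf1 was closest to Psmb10, an immunoproteasome subunit (0.164), Tapbpl, a peptide-loading protein of MHC class I (0.194), and Sp140, a chromatin reader (0.248), where the median candidate had 0.956. Irf7 was closest to Mx2 (0.378), Usp18 (0.395) and Mx1 (0.398), all of them interferon-induced, where the median was 1.60. Irf4 was closest to Slc30a4 (0.439), Exog (0.483) and Atf7ip (0.498), little below its median of 0.675. Psmb10 had means of 67.0 CPM in LP, 270 with LP PIC, 78.8 with LP 3M and 198 with the dual formulation, beside 49.98, 183, 50.7 and 142 CPM of Irf1.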

How the data were processed

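RNA of 20 BMDM libraries (5 mice under 4 conditions, 48 h) was sequenced from stranded, poly(A)-enriched libraries, per the labels' protocols. The authors deposited unnormalised read counts by gene symbol for each library. Tools listed in the submitters' processing notes are STAR 2.7.11b, DESeq2 1.44.0, HTSeq 0.13.5 and FastQC 0.11.1, with genome build GRCm38. Neither annotation nor strand setting of the counting is stated (not given in the sources used here). Reads outside genes (5.94 to 8.58%) and reads shared by several genes (1.14 to 1.90%) were left out of library sizes.

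From these counts, edgeR 4.0.16 (R 4.3.3, limma 3.58.1) fitted 1 mean per condition over all 20 libraries after filterByExpr (minimum count 10, minimum total 15), which kept 12132 genes with 99.969% of the counts. TMM factors were 0.945 to 1.07 and the biological coefficient of variation was 0.194. The quasi-likelihood test was two-sided with Benjamini-Hochberg adjustment over all tested genes. SEs were taken from the change and the root of its F statistic, and are rough for genes with few counts. The p-values cover the spread between these mice, and limits of detection cover counting error only.

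The same mouse identifier links the 4 libraries of a mouse, and over 30 pairs of same-mouse libraries the correlation of deviations from the condition means was 0.139 to 0.522. A fit with the mouse as a block was one alternative. The others were DESeq2 1.42.0, RLE size factors, plain totals, no filter, only the conditions compared, each mouse left out, and LP of mouse 2 or LP 3M of mouse 5 left out. Fits within mice 1, 2 and 5 and within mice 3 and 4 were added after seeing the data. Ratios were log2 of counts plus a pseudocount of 0.5, tested by exact permutation over 252 arrangements. No 2 libraries agreed within sampling noise (chi-squared per degree of freedom at least 7.33 over 190 pairs).

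Exon lengths and positions came from GENCODE M21 (GRCm38), where 95.7% of the symbols were found, and start windows from RefSeq (GRCm38.p6). Members and lists were chosen with earlier results of these data known. Named genes are the 8 members, from each list up to 3 genes with the smallest p for LP 3M PIC against LP and the called gene of smallest p that moved against the majority of the list, a panel of pathway genes, of which 1 result is not reported here, and the 3 closest profiles of each member that spans at least 1 on the log2 scale (mean of at least 5 CPM). Ifit1, Isg15 and Stat2 beside the mouse sets, and S100a8, S100a9, Mmp8, Camp, Tcf4, Ccr7, Clec10a and marker genes at 0, were named after their values were seen. Tables and plots were made in Python 3.11.15 (matplotlib 3.10.9, scipy 1.17.1, numpy 2.4.6, pandas 2.3.3).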

Additional observations from a re-analysis of the deposited data

Results flagged for a closer look

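Over 8 members and 4 conditions, 32 groups of 5 libraries were searched for a library far from the others, and chance flags about 1 in 20 groups. In 3 of them the gap of the extreme library to its nearest neighbour exceeded the share of 0.71 of the group's whole range. Irf2 in LP 3M PIC had its highest library at 55.4 CPM (mouse 5), where the next was at 47.7. Irf4 in LP 3M PIC had its lowest library at 0.427 CPM, also mouse 5, where the next was at 1.04. Irf8 in LP 3M had its highest library at 172 CPM (mouse 1), where the next was at 157.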

How the results depend on the processing

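The calls of Irf1, Irf2, Irf7 and Irf9 with LP PIC, of Irf2 with LP 3M and of Irf1, Irf5, Irf7 and Irf9 with LP 3M PIC kept their side of the threshold in all 13 alternatives, with Irf7 between 2.41 and 3.27 for LP PIC and between 2.21 and 2.93 for LP 3M PIC. Of the members' log2 changes under alternatives, 719 kept direction and call, 25 lost a call, 9 gained one and 15 turned sign. The turns were all of changes without a call. With plain totals Irf3 and Irf8 for LP 3M PIC against LP were -0.068 and -0.036. In mice 3 and 4 alone Irf3, Irf4 and Irf8 for the same comparison were -0.090, 0.387 and -0.098. With the mouse as a block Irf4 from LP PIC to LP 3M PIC was 0.17. With libraries of 1 mouse left out, Irf4 with LP PIC ran from -0.357 to 0.12 (0.0049 without LP of mouse 2), Irf9 with LP 3M from -0.075 to 0.012, Irf3 with LP 3M PIC from -0.018 to 0.090, Irf4 with LP 3M PIC from -0.420 to 0.089, Irf8 with LP 3M PIC from -0.021 to 0.159, Irf4 from LP PIC to LP 3M PIC from -0.393 to 0.21 and the Irf2 interaction from -0.020 to 0.083.

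Leaving out 1 mouse gave 1 to 2 members called for LP 3M against LP (1 without mouse 1 or 4), 1 to 3 for LP 3M PIC against LP PIC (1 also when only these conditions were fitted), and 0 to 1 for the interaction (1 also with plain totals). The interaction was called for 1023 of all genes, for 182 to 1398 with 1 mouse left out (182 without mouse 1, 291 without mouse 2 and 242 without mouse 4), and for 1656 with the mouse as a block. The block added the calls given beside Irf4 and Irf5 and changed no other member's call.

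The differences of the Irf1 to Irf2 log2 ratio were the same in size when paired by mouse (1.59, 0.53 and 1.65 against LP, 1.12 for LP 3M PIC against LP 3M, -1.06 for LP 3M against LP PIC), but 5 pairs allow no p under 0.0625 in the exact sign-flip test. Without 1 mouse they were 1.48 to 1.72, 0.45 to 0.60, 1.54 to 1.84, 1.04 to 1.24 and -1.22 to -0.95, each above an adjusted p of 0.05, since 4 against 4 libraries give no smaller p than 0.0286 before adjustment. The uncalled difference between LP 3M PIC and LP PIC ran from -0.18 to 0.25, and was -0.042 without mouse 5. For Irf4 to Irf8 the uncalled differences ran from -0.34 to 0.30 for LP PIC, from -0.28 to 0.24 for LP 3M PIC and from -0.51 to 0.46 between these 2. Of the counts of called genes in the pathway lists 750 stayed within 1.5 times of the value given and 60 did not. Irf4 is limited by depth: its lowest library held 4 counts.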

Other observations

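Within a condition, mouse-to-mouse spread was not the same for all members. On the log2 scale the SD of Irf7 was 1.23 in LP and 1.19 in LP 3M, but 0.37 in LP PIC and 0.26 in LP 3M PIC, beside a median over all tested genes of 0.15, 0.17, 0.18 and 0.19 in that order. Irf9 had SDs of 0.25 and 0.24 in LP and LP 3M and 0.13 and 0.05 in LP PIC and LP 3M PIC. Irf1 went the other way, with 0.24 and 0.38 in LP and LP 3M and 0.46 and 0.60 in LP PIC and LP 3M PIC. Irf5 had 0.13 and 0.12 in LP and LP PIC and 0.32 and 0.42 in LP 3M and LP 3M PIC. These SDs rest on 5 mice each and were not compared by a test.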
